A study of Mus musculus with 24 samples.

Results

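The endothelial genes and the main ligands of blood vessel growth were followed through the mouse mammary tumor series. They are Pecam1, Cdh5, Kdr, Flt1, Tek, Tie1, Eng, Vegfa, Angpt1 and Angpt2, 10 of the 37991 genes in the count table. They were chosen by name, for their known roles, with earlier results of these data known. All 10 passed the filter on low counts and were among the 14918 genes tested.

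The study sequenced RNA of mammary tumors and mammary glands from female mice at weeks 6, 8, 10 and 12 of age, with 3 PyMT and 3 FVB mice at each age, 24 samples in all. PyMT mice were F1 females heterozygous for the MMTV-PyMT transgene, in which the mouse mammary tumor virus promoter drives polyoma middle T antigen in mammary epithelium. Controls were age-matched FVB females of the same strain background without the transgene, and no treatment is stated for either group. The study named the 4 PyMT ages hyperplasia, adenoma/MIN (mammary intraepithelial neoplasia), early carcinoma and late carcinoma. By tissue staining it described its carcinoma samples as in general mostly tumor cells, with few stromal, muscle or inflammatory cells. Every sample was bulk tissue, snap frozen, which can hold epithelium together with fat, connective tissue, vessels and blood. In such tissue, fewer endothelial cells and less RNA per endothelial cell cannot be told apart.

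Blood vessels are lined by endothelial cells, which are held to each other by the junction proteins VE-cadherin (Cdh5) and PECAM-1 (Pecam1). The ligand VEGF-A, made by epithelium, fat, muscle and many other cells, binds the tyrosine kinase receptors VEGFR1 (Flt1) and VEGFR2 (Kdr) on endothelium and drives vessel growth. Angiopoietin-1 (Angpt1), from cells around the vessel, activates the receptor Tie2 (Tek) and holds vessels quiet, while angiopoietin-2 (Angpt2), made mainly by endothelium itself, can oppose it. Tie1 is the partner receptor of Tie2, and endoglin (Eng) is a coreceptor for BMP9 and BMP10 on endothelium.

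The promoters of the 4 receptor tyrosine kinases are printed because the ligand and receptor comparisons turn on these genes. They are the 250 bases upstream of the RefSeq start, 5′ to 3′, from RefSeq, which gave promoters for 6 of the 10 genes (Eng, Flt1, Kdr, Tek, Tie1 and Vegfa). Each printed sequence had 1 exact match in mm9 (NCBIM37), at chr4:118162455-118162704 on the minus strand for Tie1, chr4:94405730-94405979 on the plus strand for Tek, chr5:148537588-148537837 on the minus strand for Flt1 and chr5:76374481-76374730 on the minus strand for Kdr. The RefSeq start of Tie1 lies downstream of the GENCODE M1 start used for gene coordinates here, so that 212 bases of its window fall inside the gene as given below and 38 upstream of it. For Kdr 3 bases fall inside. Capitals mark GGAAG, or CTTCC on the other strand, a form of the site that ETS transcription factors bind and that is known from many endothelial promoters. The core of that site is shorter, GGAA or GGAT, so that other forms are left unmarked.
Tie1: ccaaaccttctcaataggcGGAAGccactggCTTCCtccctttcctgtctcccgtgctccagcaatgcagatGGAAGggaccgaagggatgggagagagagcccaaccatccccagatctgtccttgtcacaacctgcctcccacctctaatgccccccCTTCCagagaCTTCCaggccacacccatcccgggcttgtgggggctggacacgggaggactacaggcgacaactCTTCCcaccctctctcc
Tek: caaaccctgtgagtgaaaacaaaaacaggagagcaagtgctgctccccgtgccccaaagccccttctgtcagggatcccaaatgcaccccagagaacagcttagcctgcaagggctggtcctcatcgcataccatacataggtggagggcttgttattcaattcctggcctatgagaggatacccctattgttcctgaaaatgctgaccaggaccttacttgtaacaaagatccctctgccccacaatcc
Flt1: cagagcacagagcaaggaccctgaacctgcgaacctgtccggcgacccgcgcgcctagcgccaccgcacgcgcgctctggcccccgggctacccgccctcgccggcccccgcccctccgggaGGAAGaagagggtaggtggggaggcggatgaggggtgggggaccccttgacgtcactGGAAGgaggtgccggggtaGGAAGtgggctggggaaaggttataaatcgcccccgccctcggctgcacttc
Kdr: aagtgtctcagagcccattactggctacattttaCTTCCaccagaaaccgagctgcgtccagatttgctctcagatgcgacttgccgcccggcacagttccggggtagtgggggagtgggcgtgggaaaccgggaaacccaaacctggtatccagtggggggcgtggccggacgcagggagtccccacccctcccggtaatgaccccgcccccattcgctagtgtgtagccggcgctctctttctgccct
GGAAG, on either strand, occurred 6 times in the Tie1 window, 3 times in Flt1, 1 time in Kdr and 0 times in Tek. Of 32536 unique promoter windows of the same length, 64.1% held it. The shorter GGAA was not counted, and it does occur in the Tek window, as TTCC on the other strand. The hypoxia response core, ACGTG or GCGTG on either strand, occurred 1 time in the Flt1 window, 2 times in Kdr and 0 times in Tie1 and Tek, and was held by 38.8% of all windows. None of these matches was tested as a binding site.

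Total counts ran from 6969375 to 13516601 per library, with a median of 8280270. In 13 libraries, 6 PyMT and 7 FVB, the number of genes by count peaked at between 8 and 25 reads, so that low counts came in packets of that size. Values below are normalized counts (counts over DESeq2 size factors) unless stated. The 7 endothelial genes, Pecam1, Cdh5, Kdr, Flt1, Tek, Tie1 and Eng, had counts in all 24 libraries, while Angpt2 was at 0 in 3 libraries with packets of 25, 23 and 19 reads.

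Over all weeks, 9 of the 10 genes were lower in PyMT than in FVB tissue, by 3.56-fold (Vegfa) to 6.41-fold (Angpt2), and Angpt1 was not called. A call needed more than a 2-fold change together with an adjusted p below 0.05. Of all genes tested, 17.2% were called lower in this comparison and 8.51% higher, against none of the 10 higher. With scaling by library size alone the split of all genes was 2002 lower and 2050 higher, against 2571 and 1269, and the 10 genes kept 9 called lower. The median log2 fold change of the 10 genes was -2.29, against -0.03 over all genes. In 8 of the 10 genes, Angpt1 and Angpt2 being the exceptions, each of the 12 PyMT values lay below each of the 12 FVB values, which held for 7.22% of all genes tested. By log2 fold change from the lowest, the 10 genes ranked from 747 (Angpt2) to 6788 (Angpt1) among the 14918.

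**Figure D1:**
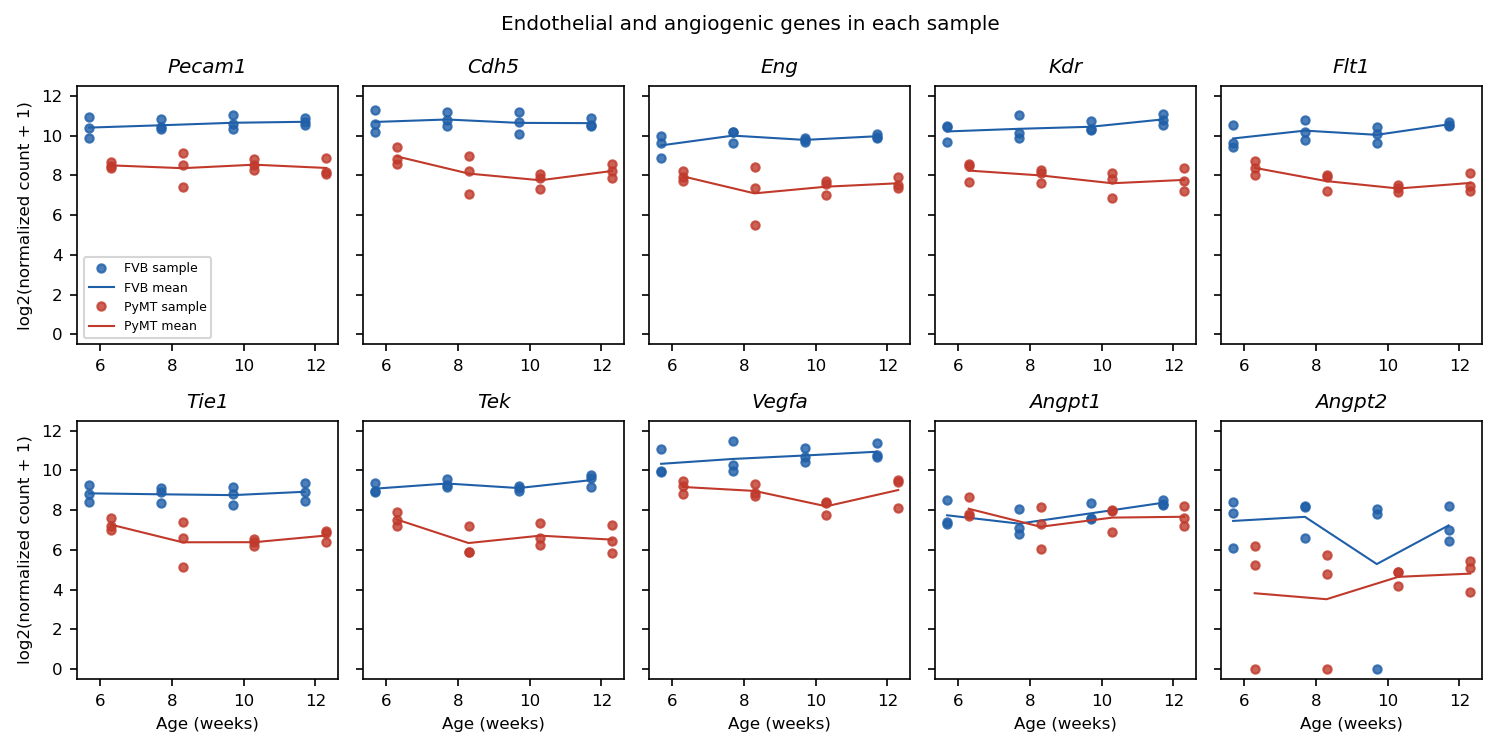
Normalized counts of the 10 genes in each of the 24 samples, as log2(normalized count + 1), against age in weeks. Blue points are FVB samples, red points PyMT samples and lines the means on the log scale (n = 3 per age). PyMT points lie below FVB points for 8 genes, overlap for Angpt1 and overlap for Angpt2, which is at 0 in 3 samples.

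VE-cadherin, the adherens junction protein specific to endothelium, is encoded by Cdh5 on the plus strand of chr8:106625525-106668402 (mm9). In FVB glands, Cdh5 had 1540.3, 1165 and 2507 normalized counts at week 6, 1428, 1755 and 2326 at week 8, 1633, 2317 and 1079.8 at week 10, and 1409.8, 1466 and 1926 at week 12. In PyMT tissue, Cdh5 had 456, 698 and 384 at week 6, 302, 132 and 503 at week 8, 269.6, 160.3 and 229 at week 10, and 378, 298 and 234 at week 12. The groups did not overlap at any age, and the highest PyMT value came from week 6. Over all weeks Cdh5 was 5.24-fold lower (log2 fold change -2.39 ± 0.21 SE, adjusted p = 1.22e-09, edgeR quasi-likelihood test with week as a factor).

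Pecam1, the other junction gene (minus strand of chr11:106515531-106611942), ran from 938 over a median of 1496 to 2076 normalized counts in the 12 FVB glands. In the 12 PyMT samples it ran from 172 over a median of 360.0 to 563. Pecam1 was 4.23-fold lower (log2 fold change -2.08 ± 0.16 SE, adjusted p = 1.80e-10, edgeR). Endoglin, encoded by Eng on the plus strand of chr2:32502115-32538189, ran from 471 over a median of 946 to 1169 in FVB and from 45.0 over a median of 198 to 340.0 in PyMT. The groups again did not overlap, and the value of 45.0 came from PyMT week 8 replicate 2, a library with packets of 23 reads. Eng was 4.54-fold lower (log2 fold change -2.18 ± 0.22 SE, adjusted p = 8.75e-09, edgeR). Exons of Eng share 124 bases with Ak1 on the same strand and 61 bases with Fpgs on the other.

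VEGFR2, the main signaling receptor of VEGF-A, is encoded by Kdr on the minus strand of chr5:76328852-76374483. FVB glands had 1408, 818 and 1444 normalized counts of Kdr at week 6, 2074, 944 and 1121 at week 8, 1281, 1718 and 1235 at week 10, and 2208, 1497 and 1771 at week 12. PyMT samples had 356, 376 and 205 at week 6, 279, 194 and 306 at week 8, 281, 222 and 116 at week 10, and 336, 146 and 209.8 at week 12. The lowest FVB value, 818, was above the highest PyMT value, 376. Kdr was 5.74-fold lower (log2 fold change -2.52 ± 0.19 SE, adjusted p = 1.39e-10, edgeR), and among the 8 genes without overlap it had the largest difference.

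VEGFR1, which binds VEGF-A tightly and also exists as a soluble decoy, is encoded by Flt1 on the minus strand of chr5:148373180-148537587. Flt1 ran from 679 over a median of 1266 to 1778 normalized counts in FVB and from 142 over a median of 210.3 to 420.3 in PyMT. It was 5.38-fold lower (log2 fold change -2.43 ± 0.19 SE, adjusted p = 2.44e-10, edgeR). Counts per gene do not separate the soluble from the full-length form. The log2 ratio of Flt1 to Kdr within a sample was -0.27 ± 0.34 (SD, n = 12) in FVB and -0.14 ± 0.32 (SD, n = 12) in PyMT. The difference of this ratio, 0.13, did not pass the test (exact permutation test within weeks, two-sided, p = 0.359, adjusted over 4 ratios 0.478).

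Tie2, the angiopoietin receptor, is encoded by Tek on the plus strand of chr4:94405980-94541667. Tek ran from 480.2 over a median of 584 to 872 normalized counts in FVB and from 57.3 over a median of 121 to 239 in PyMT, without overlap. It was 5.27-fold lower (log2 fold change -2.40 ± 0.22 SE, adjusted p = 1.92e-09, edgeR). Tie1, on the minus strand of chr4:118143796-118162666, ran from 307 over a median of 466 to 658 in FVB and from 34.7 over a median of 105 to 194 in PyMT. It was 4.25-fold lower (log2 fold change -2.09 ± 0.21 SE, adjusted p = 8.64e-09, edgeR). The log2 ratio of Tek to Cdh5, a receptor against a junction gene of the same cells, was -1.43 ± 0.53 (SD, n = 12) in FVB and -1.48 ± 0.66 (SD, n = 12) in PyMT. Its difference of -0.05 was smaller than either SD (exact permutation test within weeks, p = 0.859, adjusted 0.859). In order of age its means were -1.60, -1.47, -1.53 and -1.12 in FVB and -1.42, -1.74, -1.03 and -1.70 in PyMT. The sign of the difference thus varied between ages, and the groups overlapped at each age.

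VEGF-A is encoded by Vegfa on the minus strand of chr17:46153942-46169326. In FVB glands, Vegfa had 2157, 979 and 1021 normalized counts at week 6, 2904, 1011 and 1224 at week 8, 1390.0, 1637 and 2263 at week 10, and 2650.2, 1778 and 1622 at week 12. In PyMT tissue, Vegfa had 604, 710.2 and 444 at week 6, 414, 648 and 469 at week 8, 345, 219 and 331 at week 10, and 683, 272 and 742 at week 12. The highest PyMT value, 742, was below the lowest FVB value, 979. Vegfa was 3.56-fold lower (log2 fold change -1.83 ± 0.22 SE, adjusted p = 1.50e-07, edgeR), the smallest of the 9 called differences.

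Set against its main receptor, Vegfa was relatively higher in PyMT tissue. The log2 ratio of Vegfa to Kdr was 0.20 ± 0.36 (SD, n = 12) in FVB and 0.93 ± 0.55 (SD, n = 12) in PyMT. The difference of 0.74 passed the exact permutation test within weeks (two-sided, p = 0.00146, adjusted over 4 ratios 0.00585). By age, PyMT ratios lay above FVB ratios at week 6 (0.76 to 1.11 against -0.50 to 0.61), week 8 (0.57 to 1.73 against 0.10 to 0.49) and week 12 (0.89 to 1.82 against -0.13 to 0.26). At week 10 they overlapped, from -0.02 to 1.504 in PyMT and from -0.07 to 0.87 in FVB. Against Cdh5 in place of Kdr, the log2 ratio of Vegfa was -0.04 ± 0.79 (SD, n = 12) in FVB. In PyMT it was 0.58 ± 0.72 (SD, n = 12). That ratio overlapped at each age, and over all weeks ran from -1.30 to 1.07 in FVB and from -0.13 to 2.28 in PyMT. It was not tested.

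Angiopoietin-1 stood apart from the other 9 genes. Angpt1 lies on the minus strand of chr15:42256273-42508523, where 283 exon bases overlap the antisense gene Gm17473, which had 120 counts over all libraries. In FVB glands, Angpt1 had 362, 169 and 159 normalized counts at week 6, 269, 136 and 111 at week 8, 186, 196 and 327 at week 10, and 366, 306 and 323 at week 12. In PyMT tissue, Angpt1 had 226, 408 and 209.9 at week 6, 284, 64.7 and 158 at week 8, 261, 118 and 247 at week 10, and 145, 299 and 192 at week 12. The groups overlapped at weeks 6, 8 and 10, and at week 12 the highest PyMT value, 299, lay just below the lowest FVB value, 306. The log2 fold change over all weeks was -0.12 with a 95% interval of -0.61 to 0.37 (adjusted p = 0.704, edgeR), an interval that holds no change of 2-fold in either direction. With scaling by library size alone the value was 0.22, so no direction is given for Angpt1.

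Angiopoietin-2 had the largest fitted difference and the widest error. Angpt2 lies on the minus strand of chr8:18690263-18741562, inside Mcph1 and without shared exon bases. FVB glands had 68.4, 229 and 342 normalized counts of Angpt2 at week 6, 97.1, 283 and 301 at week 8, 269.5, 220.4 and 0 at week 10, and 128, 87.0 and 301 at week 12. PyMT samples had 37.4, 0 and 72.6 at week 6, 26.7, 0 and 53.5 at week 8, 16.9, 28.3 and 29.0 at week 10, and 42.2, 13.9 and 33.3 at week 12. Apart from the FVB value of 0 and the FVB value of 68.4, each FVB sample was above each PyMT sample. Angpt2 was 6.41-fold lower over all weeks (log2 fold change -2.68 ± 0.61 SE, adjusted p = 0.000766, edgeR).

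The log2 ratio of Angpt2 to Angpt1 was -0.91 ± 2.67 (SD, n = 12) in FVB and -3.44 ± 2.11 (SD, n = 12) in PyMT, with medians of 0.03 and -2.81. The difference of -2.53 was just past the threshold (exact permutation test within weeks, two-sided, p = 0.0232, adjusted over 4 ratios 0.0465). It was not stable, since adding 0.5 in place of 1 before the log gave an adjusted p of 0.0685. Leaving out any 1 of 14 of the 24 libraries also ended the call, with differences of -3.25 to -1.97 over the 24 settings and adjusted p from 0.00060 to 0.144. Without FVB week 10 replicate 3 and PyMT week 8 replicate 2, in both of which Angpt2 was at 0, the difference was -2.95 (adjusted p = 0.00115). That setting kept PyMT week 6 replicate 2, where Angpt2 was also at 0 and the ratio was the lowest of all samples, -8.68. Without PyMT week 6 replicate 2 alone the difference was -1.97 (adjusted p = 0.0856).

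**Figure D2:**
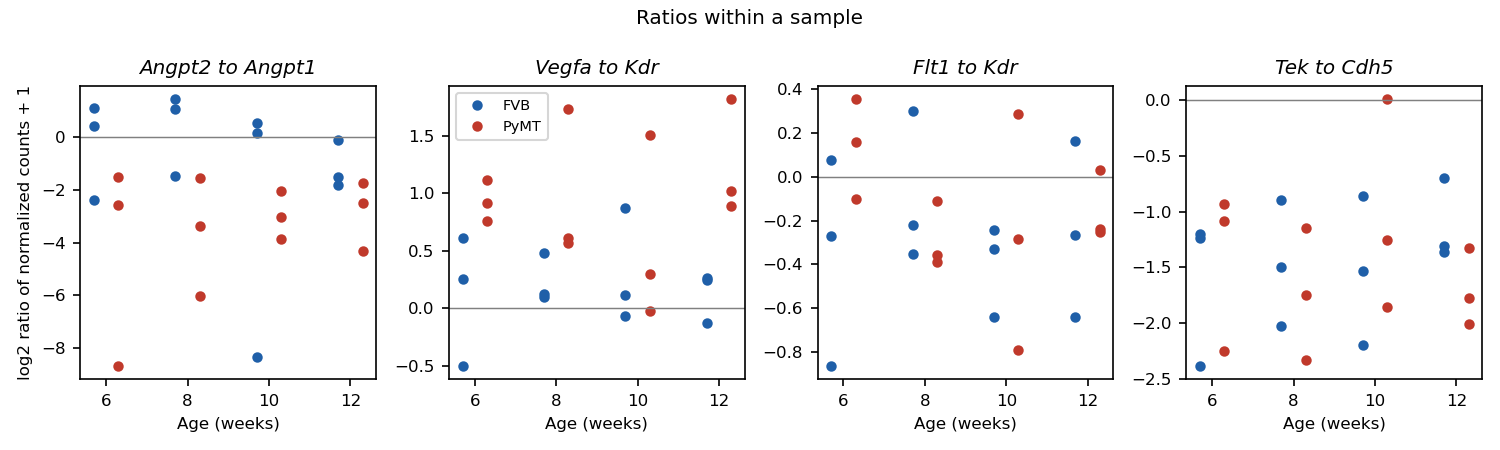
Log2 ratios of normalized counts (1 added to each) within each sample for 4 gene pairs, against age in weeks, with FVB samples in blue and PyMT samples in red. Vegfa to Kdr lies higher in PyMT at weeks 6, 8 and 12, Angpt2 to Angpt1 lies lower in most PyMT samples, and the pairs Flt1 to Kdr and Tek to Cdh5 overlap.

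Levels of different genes were compared per length, as RPKM with the exon length of each gene. In FVB glands the order of mean RPKM ran from Cdh5 (50.2 ± 13.5, SD, n = 12) through Vegfa (46.8 ± 17.8), Pecam1 (42.0 ± 8.91), Eng (27.8 ± 5.56), Kdr (23.4 ± 6.81), Tek (15.5 ± 3.05), Flt1 (12.3 ± 3.76) and Tie1 (11.2 ± 2.78) to Angpt1 (6.66 ± 2.55) and Angpt2 (6.14 ± 3.54). Neighbours in this order differed by less than the larger of their SDs, other than Pecam1 and Eng, Kdr and Tek, and Tie1 and Angpt1. In PyMT tissue the order was Vegfa (13.4 ± 4.84, SD, n = 12), Cdh5 (9.99 ± 4.65), Pecam1 (9.92 ± 2.87), Eng (6.14 ± 2.36), Angpt1 (6.05 ± 2.53), Kdr (4.09 ± 1.33), Tek (3.04 ± 1.46), Tie1 (2.69 ± 1.07), Flt1 (2.34 ± 0.86) and Angpt2 (0.95 ± 0.68). There the neighbours that differed by more were Pecam1 and Eng, and Flt1 and Angpt2. Angpt1 was thus next to last in FVB glands and between Eng and Kdr in PyMT tissue.

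At each age the same comparison was made on the 6 samples of that age. Called lower were 8 of the 10 genes at hyperplasia (week 6), where 6.46% of all genes were. The adenoma stage (week 8) had 8 genes lower (6.37% of all genes), early carcinoma (week 10) 8 (9.09%) and late carcinoma (week 12) 9 (13.0%). None of the 10 was higher at any age, against 3.58%, 3.57%, 4.83% and 7.75% of all genes in order of age. Angpt1 was called at no age, and Angpt2 was called at week 12 (log2 fold change -2.48 ± 0.60 SE, adjusted p = 0.0180, edgeR) and at none of the other 3. At week 8 it was called with no filter on low counts (adjusted p = 0.0322), by DESeq2 (0.0341) and by limma voom (0.0203). The week 12 call of Angpt2 was lost without PyMT replicate 2 (adjusted p = 0.0563), PyMT replicate 3 (0.0610) or FVB replicate 3 (0.0925) and in the fit of all 24 samples (0.191), and at week 10 Angpt2 was called once FVB replicate 3, with 0 counts, was left out (-3.26, adjusted p = 0.00188).

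Without overlap and lower in PyMT were 8 genes at week 6 (20.4% of all genes), 9 at week 8 (21.7%), 8 at week 10 (21.6%) and all 10 at week 12 (25.2%). In order of age, the median log2 fold changes of the 10 genes were -1.61, -2.43, -2.44 and -2.33. At week 6 the log2 fold changes of the 7 endothelial genes ran from -1.98 ± 0.31 (Kdr) to -1.55 ± 0.27 (Tek), and Vegfa was at -1.26 ± 0.34 (SE, adjusted p = 0.0487, edgeR). At week 12 they ran from -2.94 ± 0.31 (Kdr) to -2.19 ± 0.29 (Tie1), with Vegfa at -1.78 ± 0.37 (adjusted p = 0.00950).

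The weekly counts rested on few samples. Without PyMT week 6 replicate 3 the count at week 6 was 3, and without PyMT week 6 replicate 1 it was 4. At week 8 it was 3 without PyMT replicate 1, 4 without FVB replicate 2 and 5 without FVB replicate 3. In each of these settings the log2 fold changes of the 8 genes stayed below -1. With the replicate number as a block, Vegfa was not called at week 6 or week 8. Its call at week 6 in the main fit was the weakest. It held without FVB replicate 3 and was lost without any 1 of the other 5 libraries, where the adjusted p ran from 0.0585 to 0.158. With 1 library left out in turn, the log2 fold change of Vegfa at week 6 ran from -1.46 to -0.75, the latter under the 2-fold threshold.

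**Figure D3:**
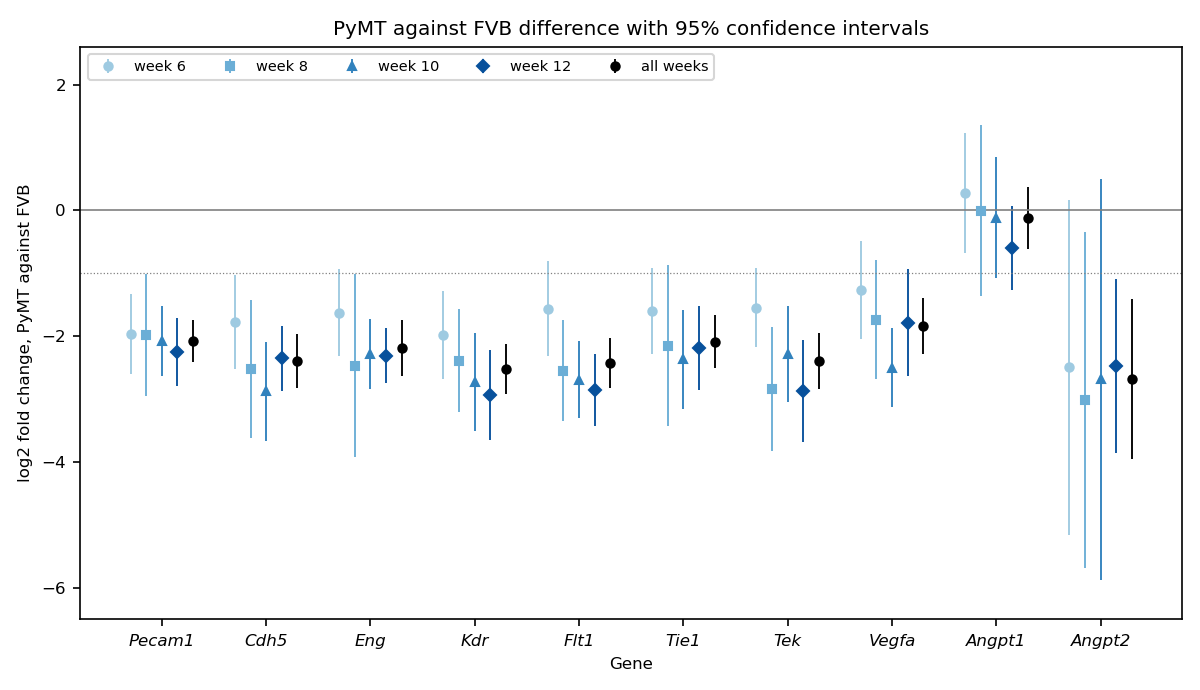
Log2 fold change of PyMT against FVB for each of the 10 genes at each age and over all weeks, with 95% confidence intervals. The dotted line marks a 2-fold decrease. Intervals of 8 genes lie below 0 at all ages, Angpt1 lies around 0 and Angpt2 has the widest intervals.

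Whether the difference itself changed with age was asked of 1 model that held all 8 groups and 24 samples. None of the 10 genes was called for a change between weeks 6 and 12, between weeks 8 and 10 or at any age, by edgeR or by DESeq2. At an unadjusted p under 0.05, edgeR gave 2 genes between weeks 6 and 12, Flt1 (change of the log2 fold change -1.32 ± 0.45 SE, adjusted p = 0.923) and Tek (-1.35 ± 0.52 SE, adjusted p = 0.973). It gave 0 genes between weeks 8 and 10 and 1, Flt1, for any change over the 4 ages (adjusted p = 1.00). Of all 14918 genes, edgeR called 0 for a change between weeks 6 and 12 (691 at an unadjusted p under 0.05), 1, Trip13 (0.00670%), between weeks 8 and 10 (533) and 0 for any change (494).

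Within PyMT tissue no member was called between weeks 6 and 12 by edgeR or DESeq2. The log2 fold changes of Flt1 and Tek were -0.73 ± 0.32 SE (adjusted p = 0.678, edgeR) and -0.94 ± 0.37 SE (adjusted p = 0.568), both with an unadjusted p under 0.05, and the other 8 had an unadjusted p above 0.05. Within FVB glands none of the 10 had an unadjusted p under 0.05. edgeR called 0 of all genes in either tissue, with 1004 genes in PyMT and 625 in FVB at an unadjusted p under 0.05.

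Other genes of the same cells were counted from lists chosen by name, also with earlier results of these data known. Counts over all weeks here and below stand beside 17.2% of all genes tested called lower and 8.51% called higher. All 22 of the other endothelial genes were lower in PyMT over all weeks, with a median log2 fold change of -2.59. Vwf, the von Willebrand factor stored in endothelial granules, had the largest decrease (-3.05 ± 0.22 SE), and Plvap, a protein of capillary fenestrae, the smallest (-1.62 ± 0.25 SE). By age, 13, 15, 18 and 21 of the 22 were called lower at weeks 6, 8, 10 and 12, and none higher. Of 7 pericyte markers, genes of the cells that wrap capillaries, 6 were lower, from Cspg4 (-2.83 ± 0.26 SE) to Mcam (-1.57 ± 0.12 SE). Of 5 lymphatic endothelial markers 3 were lower, from Reln (-3.21 ± 0.44 SE) to Pdpn (-1.11 ± 0.37 SE), a protein also found on fibroblasts and epithelium. Among those not called, 1 had a value above 0, at 0.90.

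The other VEGF ligands and receptors did not all move one way. Of 7 genes, 6 were lower and 1 higher over all weeks, with a median log2 fold change of -1.86. The lymphatic growth factors Vegfd (-3.22 ± 0.55 SE) and Vegfc (-1.79 ± 0.54 SE), the ligand Vegfb (-2.30 ± 0.30 SE), the coreceptors Nrp1 (-2.15 ± 0.17 SE) and Nrp2 (-1.86 ± 0.15 SE) and the lymphatic receptor Flt4 (-1.43 ± 0.53 SE) were lower. Pgf, the placental growth factor that binds VEGFR1 and not VEGFR2, was higher (1.27 ± 0.52 SE, adjusted p = 0.0462, edgeR), and among the single ages it was called at week 12 alone (3.49 ± 0.93 SE, adjusted p = 0.0248).

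Of 8 genes of tip cells and sprouting, 5 were lower and 1 higher. Esm1, a tip cell marker, was lower (-2.47 ± 0.86 SE), as was Dll4, the Notch ligand of tip cells, by the least (-1.49 ± 0.22 SE), while Apln, the ligand apelin, was higher (1.06 ± 0.29 SE, adjusted p = 0.00361, edgeR). Of 7 tested genes of the endoglin and ALK1 pathway, 2 were called lower, the target genes Id3 (-2.43 ± 0.31 SE) and Id1 (-2.22 ± 0.23 SE). Of all genes tested, 17.2% were called lower. The receptor Acvrl1 was at -0.48 ± 0.15 SE, below the 2-fold threshold, and the ligands Gdf2 and Bmp10 were not tested for low counts.

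Among 9 tested genes induced by hypoxia, 3 were higher and 2 lower, with a median log2 fold change of 0.31. Of all genes tested, 8.51% were called higher and 17.2% lower. Car9, a carbonic anhydrase, was higher (2.72 ± 0.79 SE), as were the glucose transporter Slc2a1 (1.77 ± 0.19 SE) and the prolyl hydroxylase Egln3 (1.63 ± 0.32 SE), while Bnip3, a mitophagy receptor, was lower (-2.98 ± 0.22 SE) and so was Adm, adrenomedullin (-1.73 ± 0.58 SE). Of 6 inhibitors of vessel growth, 5 were lower, from Col18a1, the source of endostatin (-2.16 ± 0.19 SE), to Vash1, vasohibin (-1.18 ± 0.24 SE), and Thbs1, thrombospondin-1, was higher (1.34 ± 0.30 SE). None of these lists was tested as a set.

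**Figure D4:**
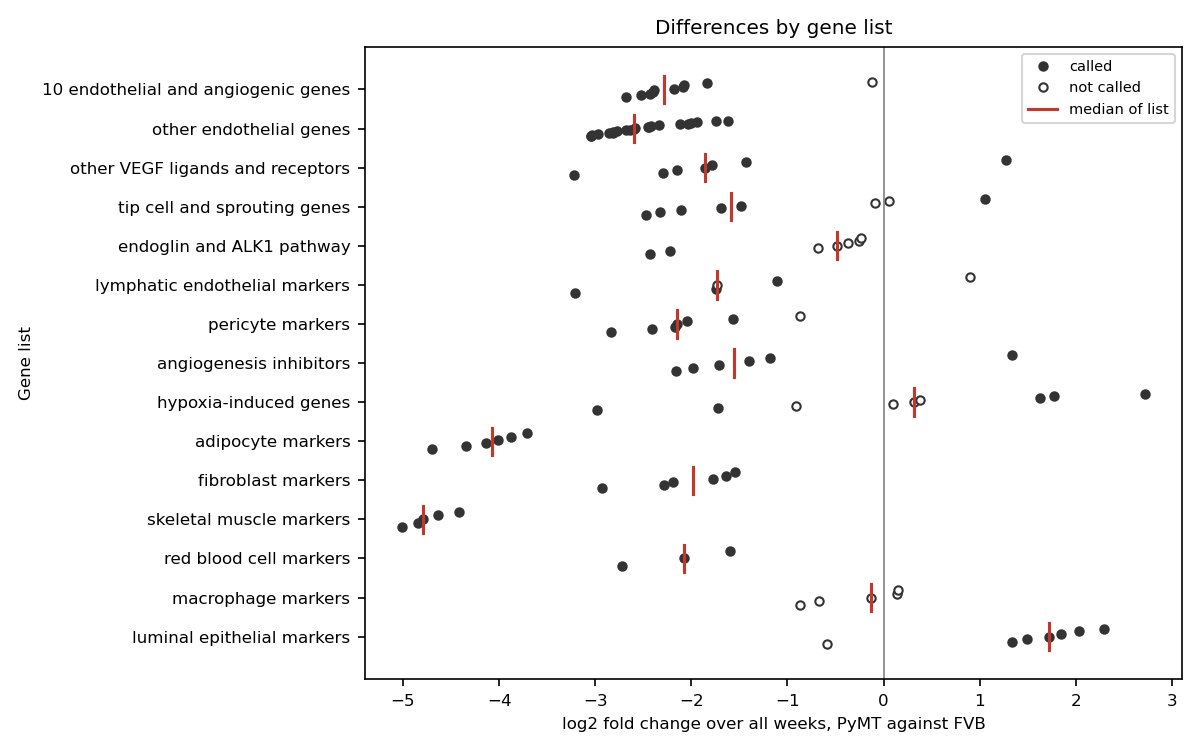
Log2 fold change of PyMT against FVB over all weeks for each tested gene of 15 lists, 1 point per gene, filled where the gene was called. Red bars are list medians, which lie at -2.29 for the 10 genes, -2.59 for the other endothelial genes, -4.08 for adipocyte markers and 1.72 for luminal epithelial markers.

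Markers of other cell types moved with the same groups. All 6 adipocyte markers were lower in PyMT tissue, from Retn (-4.69 ± 0.45 SE) to Lipe (-3.71 ± 0.28 SE), and their summed normalized counts ran from 17868 to 48901 in FVB and from 504 to 5155 in PyMT. All 6 fibroblast markers were lower, from Dcn (-2.93 ± 0.20 SE) to Col1a2 (-1.54 ± 0.21 SE), with sums of 48426 to 186401 in FVB and 21429 to 44769 in PyMT. Of 7 luminal epithelial markers 6 were higher, from Elf5 (2.29 ± 0.17 SE) to Cdh1 (1.33 ± 0.19 SE), with sums of 4272 to 18558 in FVB and 20119 to 37964 in PyMT. The other marker went the other way, at -0.59 over all weeks, and was not called. At week 12 the lowest value of this list was -1.18, also not called. The sums of these lists did not overlap between genotypes, and their part in the lower endothelial values was not tested. No defining marker of these 3 lists or of endothelium was at 0 in all libraries of a genotype.

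Further lists held the blood, muscle, immune and basal epithelial cells. The 3 red blood cell genes were lower, from Hba-a1 (-2.72 ± 0.26 SE), whose reads may be shared with a near-identical copy, to Alas2 (-1.60 ± 0.51 SE), with sums of 1566.4 to 8773 in FVB and 305 to 1566.3 in PyMT. Of 5 macrophage markers 0 were called over all weeks, Mrc1 (-0.87 ± 0.19 SE) and Csf1r (-0.67 ± 0.17 SE) having an adjusted p under 0.05 (edgeR) at less than a 2-fold change, and at week 10 both were called lower, at -1.20 ± 0.25 SE and -1.02 ± 0.24 SE. Of 5 myoepithelial markers 2 were lower, Oxtr (-3.13 ± 0.25 SE) and Krt17 (-1.95 ± 0.42 SE). Of the lymphocyte markers Ptprc alone was tested, at -0.05 ± 0.17 SE. All 5 skeletal muscle markers were lower over all weeks, from Ckm (-5.01 ± 1.46 SE) to Myh4 (-4.41 ± 1.54 SE), with sums of 75.8 to 479533 in FVB and 0 to 26999 in PyMT.

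Muscle signal differed between glands of 1 group. After the data were seen, the comparison was repeated without 5 FVB and 4 PyMT libraries. In these the 5 muscle markers summed to at least 1000 normalized counts. They included each PyMT library of week 6, so the repeat did not cover hyperplasia. Of the FVB glands, week 6 and week 12 each kept replicate 3 alone. Over the 8 PyMT and 7 FVB libraries left, the same number of genes, 9 of the 10, was called lower. In those 7 FVB glands Vegfa ran from 1011 to 2904, above the PyMT maximum of 742.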

How the data were processed

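RNA of 24 mammary samples was sequenced after rRNA depletion as directional libraries. The authors used GSNAP to align the reads to mm9 and HTSeq to count them per Ensembl gene, and deposited those raw counts with no normalization applied. The strand setting of the counting is not given in the sources used here. Symbols, coordinates and exon lengths were taken from GENCODE M1, on mm9. The 14918 genes that reached 1 CPM in 12 or more of the 24 samples entered edgeR's quasi-likelihood fits after TMM scaling, with Benjamini-Hochberg adjustment over all of them, on the 6 samples of an age, on 24 samples with week as a factor, or on 24 samples in 8 groups for changes with age. The standard error was the log2 fold change over the square root of F. RPKM used TMM-scaled library sizes. Ratios were tested by enumerating all 160000 exchanges of genotype within weeks. Sums of markers and ratios used counts over DESeq2 size factors. p-values measure the spread between mice, 1 library each, and the reads carry no molecular identifiers.

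R 4.3.3, edgeR 4.0.16, DESeq2 1.42.0, limma 3.58.1, Python 3.11.15, SciPy 1.17.1 and pandas 2.3.3 were used, and the fits were tested on simulated data. The 10 genes and the gene lists were chosen with earlier results of these data known. Named from each list were the called genes with the largest and smallest log2 fold change over all weeks, the VEGF and endoglin pathway genes called at an age, and the 5 genes closest to Cdh5 and to Vegfa. With the sign counted, genes named outside this rule include Dll4, Vash1, Egln3, Slc2a1, Adm, Acvrl1, Mrc1, Csf1r, Ptprc and Trip13. These were chosen after their values were seen. Same-numbered PyMT and FVB samples deviated together with correlations of -0.041 to 0.198 (4 of 12 over 0.1). Differently numbered ones of the same age had correlations of -0.151 to 0.088, none of them over 0.1. Whether same-numbered samples share a source was not tested, and no label ties a number to a litter or batch. The main fits did not pair them, and the fit with the replicate number as a block is given below. Scaling, the low-count filter, the test, the samples in the fit and each library were varied in turn.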

Additional observations from a re-analysis of the deposited data

How the results depend on the processing

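Over all weeks 9 of the 10 genes were called lower under each alternative run. The run without libraries rich in muscle signal held no PyMT sample of week 6. At single ages the counts ran from 7 to 8 at week 6, 6 to 9 at week 8, and 8 to 9 at weeks 10 and 12 under other scaling, filters, tests and fits, and from 3 to 7 at weeks 6 and 8 with 1 library left out. With the replicate number as a block, 7, 7, 8, 9 and 9 genes were called lower at weeks 6, 8, 10, 12 and over all weeks, Vegfa being lost at week 6 (adjusted p = 0.0598) and week 8 (0.0726). The block changed no other call. Of 1100 values of single genes under alternatives, 1037 kept direction and call, 40 lost the call, 5 gained it and 18 changed sign. Scaling by library size alone took the all-gene median over all weeks from -0.03 to 0.26 (log2) and turned the split of calls over all weeks from 2571 lower and 1269 higher to 2002 and 2050. Counts of all genes called at an age moved by over 1.5 times without 1 of these libraries: PyMT week 6 replicates 1 (857) and 3 (967), PyMT week 8 replicates 1 (513) and 3 (905), FVB week 8 replicate 2 (684), and PyMT week 10 replicates 1 (1262) and 3 (1370), from 1498, 1484 and 2076 at those ages.

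Angpt1 changed sign most. At week 8 its log2 fold change was 0.28 with library size only, 0.022 with no filter, 0.39 without FVB week 10 replicate 3 and PyMT week 8 replicate 2, and 0.63 with limma voom. Library size only, leaving out those 2 libraries and limma voom gave 0.24, 0.18 and 0.25 at week 10, and 0.22, 0.029 and 0.041 over all weeks. With 1 library left out, Angpt1 ranged from -0.015 to 0.79 at week 6, -0.60 to 0.49 at week 8, -0.31 to 0.18 at week 10 and -0.24 to -0.02 over all weeks. With 1 or those 2 libraries left out, the change of Flt1 between weeks 8 and 10 ranged from -0.58 to 0.050, and the ratio of Tek to Cdh5 from -0.18 to 0.057, with the sign changed in 8 of 24. The cause was not tested. The Angpt2 to Angpt1 difference was -2.63 with 0.5 added, without a call. It lost its call without PyMT week 6 replicate 2, PyMT week 8 replicates 1 and 2, any PyMT week 10 replicate, PyMT week 12 replicate 2, FVB week 6, 8 or 10 replicate 2, FVB week 6, 8 or 12 replicate 3, or FVB week 10 replicate 1, and ranged from -3.25 to -1.97. The difference for Vegfa to Kdr passed in each alternative (0.62 to 0.81). Angpt2 had the lowest mean count of the 10 in both genotypes and was at 0 in 3 libraries.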

Other observations

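Samples of a group also differed from each other. In these differences the 7 endothelial genes varied together to differing degrees, and not all of the 10 genes did. After each group's mean was removed from log2(normalized count + 1), pairs among the 7 endothelial genes had a Pearson r of 0.17 to 0.89 over the 24 samples (median 0.45, 21 pairs), highest for Cdh5 and Tie1. Vegfa had an r of -0.25 to 0.52 with the 7 (median -0.05), Angpt1 of -0.08 to 0.40 and Angpt2 of 0.03 to 0.55. Vegfa and Angpt2 had an r of -0.44. The samples share tissue makeup, depth and size factors, so these values only describe them.

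Among all tested genes outside the 10, those closest to Cdh5 by the same measure were Lamb1, a laminin chain (r = 0.90), Pom121, a nuclear pore protein (0.87), Amigo2, an adhesion protein (0.85), Fbln5, an elastic fibre protein (0.84), and Sh3bp5 (0.83). Closest to Vegfa were Pfkl, a phosphofructokinase (0.92), Cox6a1, a subunit of cytochrome c oxidase (0.90), Bckdk (0.87) and Bckdha (0.86), the kinase and a subunit of branched-chain ketoacid dehydrogenase, and Oxct1, an enzyme of ketone body use (0.87).

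The log2 ratio of Angpt1 to Cdh5, chosen after its values were seen and not tested, was -2.87 ± 0.86 (SD, n = 12) in FVB glands and -0.62 ± 0.58 (SD, n = 12) in PyMT tissue. It ran from -4.38 to -1.72 and from -1.67 to 0.11. In the 5 FVB glands with much muscle signal Angpt2 ran from 0 to 229 normalized counts (median 87.0), against 97.1 to 342 (median 283) in the other 7, and Vegfa from 979 to 2650.2 (median 2157) against 1011 to 2904 (median 1390.0).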
